A study of Homo sapiens with 9 samples.

Results

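Rescue cells that overexpress UGT2B28 were set against cells labelled as UGT2B28 knockdown, in 6 of the 9 RNA-seq libraries of a study of LAPC4, an androgen-responsive human prostate cancer line. The libraries were taken by their labels: 3 rescue libraries (titled KD4OE, genotype UGT2B28 rescue) and 3 knockdown-labelled libraries (titled KD4, genotype UGT2B28 knockdown). The other 3, controls titled NT, entered the fit for its estimate of the spread and serve here as a reference level. Cells of every group were taken at day 30. The rescue overexpresses UGT2B28 on the knockdown background, so the knockdown construct is shared by both groups compared. Selection was with 3 ug/mL puromycin for the knockdown and 1 mg/mL G418 for the rescue, and no selection agent is named for the controls. A response to either drug and a response to UGT2B28 cannot be told apart in this comparison. The labels do not say whether each line was a clone or a pool, or whether libraries 1 to 3 of a group came from separate cultures. A p-value here therefore speaks only of the spread among these libraries, part or all of which may be technical.

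UGT2B28 is an enzyme of the endoplasmic reticulum that attaches glucuronic acid to steroids, androgens among them, which makes them soluble and ready for export. Glucuronidation is one of the ways in which prostate cells dispose of active androgens. EGR1 is an immediate early transcription factor, made within minutes of growth factor signalling through ERK and serum response factor. MMP10 is a secreted protease of the extracellular matrix, and AKAP12 is a scaffold that tethers protein kinases A and C near the membrane.

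The counts assigned to genes ranged from 8132206 to 14185252 per library. Knockdown-labelled libraries 1 and 2 resembled each other (Spearman correlation across genes 0.989), and library 3 stood apart from both (0.945 and 0.950). The share of counts in mitochondrially encoded mRNAs was 11.5%, 12% and 8.59% in knockdown-labelled libraries 1, 2 and 3, beside 5.5%, 4.41% and 6.18% in rescue. That of cytosolic ribosomal protein mRNAs was 12%, 11.5% and 6.68%, beside 6.97% to 7.95% in rescue. The TMM scaling factors, which correct for such differences in composition, were 0.793 and 0.8 for knockdown-labelled libraries 1 and 2, and 1.11 for library 3. Those of the rescue libraries were 1.03 to 1.09. All 9 prostate luminal markers were detected in every library, including KLK3, KLK2, HOXB13 and FOXA1. The leukocyte markers PTPRC and LYZ were at 0 counts in all 9 libraries, as were the erythroid HBB and the neuroendocrine INSM1.

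UGT2B28 mRNA was about 12.6-fold higher in the rescue libraries. The gene lies on chromosome 4 at 69280499 to 69295050, plus strand (GRCh38). Its level in counts per 1000000 scaled by TMM (CPM) was 75.1, 92.9 and 53.6 in rescue libraries 1, 2 and 3, against 8.48, 6.18 and 3.05 in the knockdown-labelled libraries. The groups were far from overlapping, with library 3 the lowest of each. This is a log2 fold change of 3.66 with an SE of 0.332 (edgeR adjusted p = 0.00126). The controls, at 5.12, 5.1 and 7.8 CPM, lay within the range of the libraries labelled knockdown, so the mRNA does not bear out that label and directions below are those of labelled libraries. The paralogs UGT2B11 (log2 fold change -0.38, edgeR adjusted p = 0.322) and UGT2B15 (-0.44, adjusted p = 0.341), which glucuronidate steroids as well or are close in sequence, did not pass. UGT2B17, another androgen-conjugating enzyme, had 0 counts in all 9 libraries.

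Across 16796 genes tested, 1651 passed (9.83%), with 745 higher in rescue (4.44%) and 906 lower (5.39%). Every one of the 745 and 866 of the 906 separated the 3 rescue from the 3 knockdown-labelled libraries without overlap, as 28.6% of all genes tested did (14.6% higher and 14% lower). When libraries 1 and 2, and library 3, were each fitted as the knockdown-labelled group on their own, 497 of the 745 and 386 of the 906 passed both against libraries 1 and 2 and against library 3. The remaining 248 and 520 passed only against libraries 1 and 2. Of all genes, the fit against libraries 1 and 2 called 39% (18.6% higher and 20.4% lower), and the fit against library 3 called 19.5% (12.7% higher and 6.84% lower). In the latter, the lone library is assumed to vary like the other groups.

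The values of single libraries were then used to sort genes, with no test, by a gap of at least 1.5-fold in CPM. All 3 rescue libraries cleared all 3 knockdown-labelled libraries by this gap for 430 genes, 308 above (1.83% of genes tested) and 122 below (0.726%). Of these, 240 and 100 also passed the edgeR test. A further 1210 genes were apart from libraries 1 and 2 only, with library 3 inside the rescue range or on its far side: in 562 rescue was above (3.35%) and in 648 below (3.86%). Of those 1210, 0 of the higher and 39 of the lower passed. The mirror image, genes apart from library 3 only, held 836 above (4.98%) and 338 below (2.01%), and none passed in the edgeR fit. For 135 genes the rescue libraries lay between, at least the gap from libraries 1 and 2 on one side and from library 3 on the other. In 776 more genes rescue cleared libraries 1 and 2 by the gap, and library 3 lay between them, short of the gap. Rescue was above in 347 of these and below in 429, of which 118 and 342 passed the edgeR test.

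**Figure D1:**
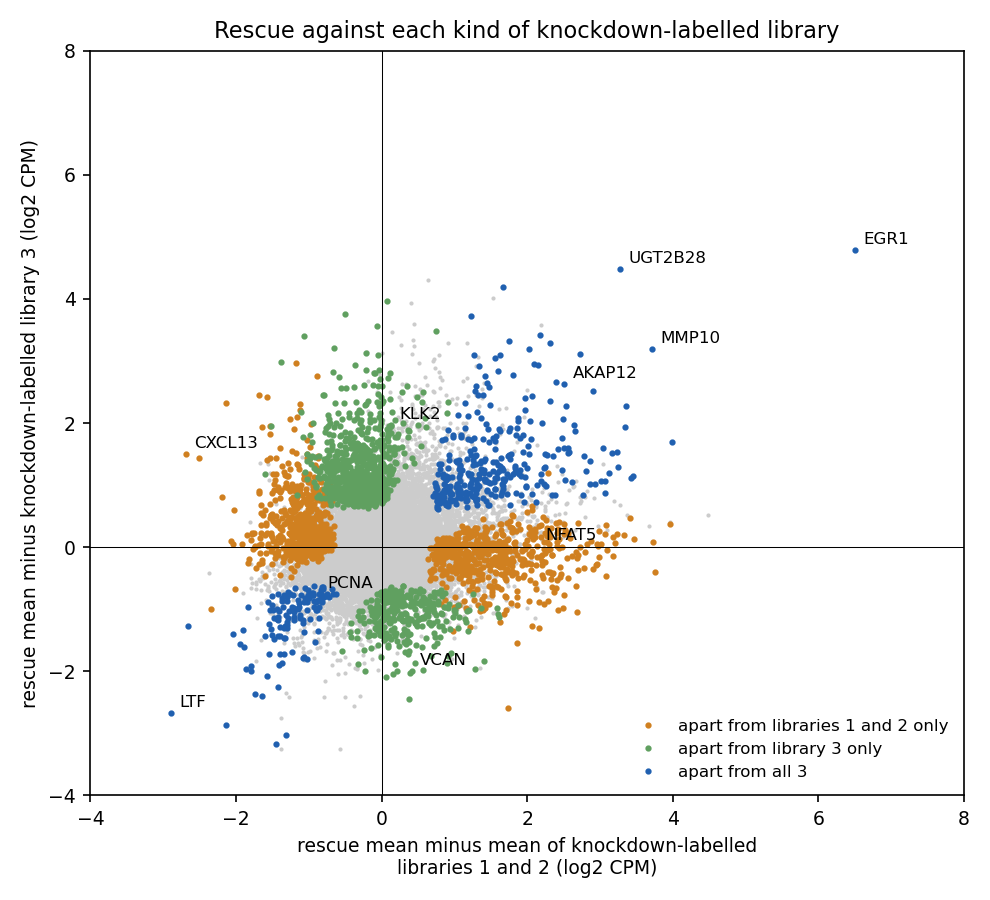
Each point is a gene: the mean log2 CPM of the 3 rescue libraries minus the mean of knockdown-labelled libraries 1 and 2 (horizontal) or minus library 3 (vertical). The 430 genes apart from all 3 (blue) occupy 2 opposite corners with EGR1 and UGT2B28 at one end and LTF at the other, the 1210 apart from libraries 1 and 2 only (orange) spread left and right, and those apart from library 3 only (green) up and down. Grey points are the other genes tested, and the 135 genes in both partial classes are drawn orange.

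EGR1 had the largest rise among genes apart from all 3 knockdown-labelled libraries. It stood at 23.9, 98.7 and 23.6 CPM in rescue and at 0.135, 0.353 and 1.2 CPM in the libraries labelled knockdown, which is 1, 4 and 11 counts. Rescue library 2 was the highest by far, yet the lowest rescue library was still well above every library labelled knockdown. The log2 fold change was 6.38, with an SE of 0.751, an edgeR adjusted p of 0.00605 and a 95% confidence interval from 4.73 to 8.04. It was 5.35 without rescue replicate 2 and 7.45 without knockdown replicate 3, the lowest and highest values as single libraries were left out. The controls held 0.612 to 0.815 CPM. EGR1 lies on chromosome 5 at 138465490 to 138469315, plus strand.

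MMP10 and AKAP12 were steadier among the rescue libraries. MMP10 (chromosome 11, 102770503 to 102780628, minus strand) stood at 17.6, 15.6 and 13.5 CPM in rescue and at 0.942, 1.06 and 1.52 CPM in the libraries labelled knockdown. Its log2 fold change was 3.71, with an SE of 0.32, an edgeR adjusted p of 0.00126 and a 95% confidence interval from 3.00 to 4.42. The rescue libraries sat close together, and the controls (0.699 to 1.63 CPM) were at the level of the libraries labelled knockdown. AKAP12 (chromosome 6, 151239999 to 151358557, plus strand) stood at 20.4, 27.5 and 39 CPM in rescue and at 5.92, 3.8 and 4.35 CPM in the libraries labelled knockdown. Its log2 fold change was 2.64, with an SE of 0.371, an edgeR adjusted p of 0.00866 and a 95% confidence interval from 1.82 to 3.45. Control library 3, at 13.3 CPM, came nearest to the rescue range, and the other controls held 6.29 and 5.31 CPM.

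**Figure D2:**
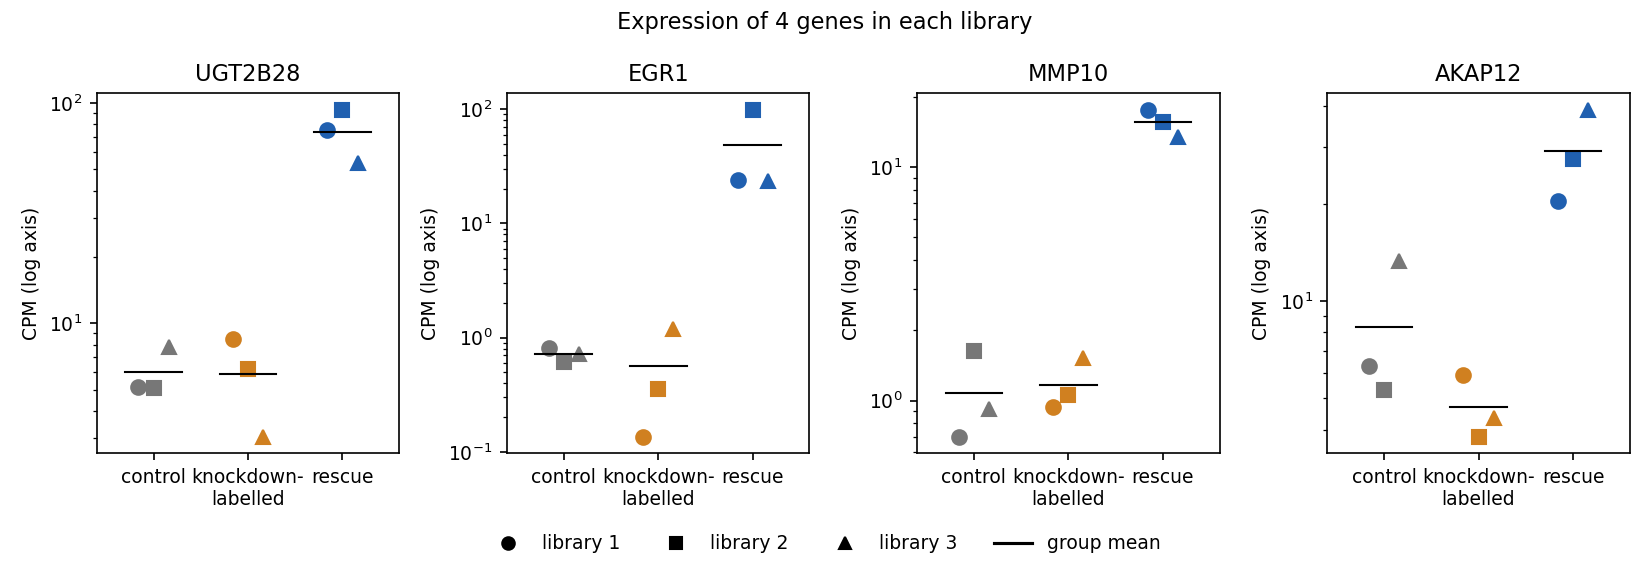
CPM of UGT2B28, EGR1, MMP10 and AKAP12 (log axes, a separate scale per gene) in each control, knockdown-labelled and rescue library. Symbols give the library number and bars the group mean. For all 4 genes every rescue library lies above every other library, with EGR1 the most uneven (23.6 to 98.7 CPM in rescue).

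The sequences just before the starts of these 3 genes and of SRF are shown to set the marker genes beside SRF, which encodes the factor that binds the first of the motifs below. They are the 250 bases before the RefSeq start, 5' to 3' on the gene's own strand, with capitals for matches to 3 motifs searched on both strands. The motifs were the CArG box bound by serum response factor, TGANTCA (the AP-1 motif) and GCGNGGGCG (the EGR motif).
EGR1 (GRCh38.p14, chr5:138465229-138465478, plus strand): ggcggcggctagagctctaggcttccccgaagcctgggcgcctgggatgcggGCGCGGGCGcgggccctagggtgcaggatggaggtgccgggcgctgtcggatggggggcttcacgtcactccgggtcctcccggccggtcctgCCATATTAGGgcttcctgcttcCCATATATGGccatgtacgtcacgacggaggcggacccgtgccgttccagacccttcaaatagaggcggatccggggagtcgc
SRF (GRCh38.p14, chr6:43171019-43171268, plus strand): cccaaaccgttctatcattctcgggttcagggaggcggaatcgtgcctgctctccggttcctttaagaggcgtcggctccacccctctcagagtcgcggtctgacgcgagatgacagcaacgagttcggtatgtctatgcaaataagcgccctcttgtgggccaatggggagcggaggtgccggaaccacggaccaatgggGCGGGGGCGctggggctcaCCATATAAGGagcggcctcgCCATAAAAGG
AKAP12 (GRCh38.p14, chr6:151239717-151239966, plus strand): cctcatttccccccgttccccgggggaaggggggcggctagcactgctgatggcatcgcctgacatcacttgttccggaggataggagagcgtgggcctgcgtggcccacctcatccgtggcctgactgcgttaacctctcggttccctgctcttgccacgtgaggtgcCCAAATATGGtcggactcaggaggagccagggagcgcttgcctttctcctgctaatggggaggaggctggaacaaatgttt
MMP10 (GRCh38.p14, chr11:102780629-102780878, minus strand): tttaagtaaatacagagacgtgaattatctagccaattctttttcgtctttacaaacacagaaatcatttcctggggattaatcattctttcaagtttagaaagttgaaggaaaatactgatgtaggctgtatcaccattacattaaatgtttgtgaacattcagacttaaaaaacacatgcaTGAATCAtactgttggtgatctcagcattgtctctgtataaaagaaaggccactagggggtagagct
EGR1 held CArG boxes at -105 to -96 and -83 to -74 and a GCGNGGGCG match at -198 to -190, counted back from the start. SRF held CArG boxes at -30 to -21 and -10 to -1 and a GCGNGGGCG match at -49 to -41. AKAP12 held 1 CArG box at -81 to -72, and MMP10 1 TGANTCA match at -67 to -61. Of 27305 promoters in the same table, 1.14% held a CArG box, 6.6% TGANTCA and 8.25% GCGNGGGCG. Among the 7 immediate early genes that passed, described next, EGR1 and SRF were the 2 with a CArG box; KLF4 held 1 GCGNGGGCG match, and FOSB, FOSL2, JUNB and NR4A1 held none of the 3 motifs in this window. No 2 of the matches overlap, and a match is a description of letters, not of binding.

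The immediate early genes, which growth factors switch on without new protein synthesis, were higher in rescue as far as they passed: 7 of 26 tested rose and 0 fell. The median log2 fold change of the 26 was 0.65 (0.31 without rescue replicate 2), beside -0.0023 over all genes tested. Those that rose were EGR1, the AP-1 subunits FOSB, FOSL2 and JUNB, the orphan nuclear receptor NR4A1, KLF4 and SRF itself. FOSB stood at 8.3, 35.2 and 9.64 CPM in rescue and at 4.17, 3.35 and 3.59 CPM in the libraries labelled knockdown (log2 fold change 2.26, SE 0.53, edgeR adjusted p = 0.027). NR4A1 stood at 101, 357 and 157 CPM against 67, 59.7 and 36.3 CPM (1.92, SE 0.407, adjusted p = 0.0202). As with EGR1, rescue library 2 was the highest for both, and the groups did not overlap. FOSL2 (37.7, 61 and 42.4 CPM against 16.6, 22.7 and 21.3 CPM) and KLF4 (86.7, 139 and 92.3 CPM against 54.6, 55.3 and 47.2 CPM) also cleared all 3 libraries by the gap. SRF (log2 fold change 0.83, edgeR adjusted p = 0.0178) and JUNB (0.78, adjusted p = 0.0255) did not overlap between groups but missed the gap. FOS, the best known member, did not pass (log2 fold change 1.40, adjusted p = 0.136). It stood at 83, 261 and 106 CPM in rescue and 79.3, 73.2 and 18.5 CPM in the libraries labelled knockdown.

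Relative to the control mean, the median of the immediate early list was 0.28, 1.10 and 0.46 log2 units in rescue libraries 1, 2 and 3. In the knockdown-labelled libraries it was 0.24, 0.27 and -0.12, so the rescue values were all higher, rescue library 1 only slightly so than libraries 1 and 2. The calls of FOSB, NR4A1, FOSL2, KLF4, SRF and JUNB were each lost in 3 to 5 of the 9 fits that left out 1 library, among them always those without rescue replicate 2 or knockdown replicate 2. Their highest edgeR adjusted p lay between 0.0645 (KLF4, without rescue replicate 2) and 0.101 (FOSB, without knockdown replicate 2). EGR1 alone of the 7 passed in all 9 such fits. Of all genes tested, 4.44% rose and 5.39% fell. Among 20 tested ERK feedback and output genes, 2 rose and 0 fell (median 0.29, and 0.15 without knockdown replicate 3). These were the phosphatase gene DUSP4, at 717, 1170 and 856 CPM in rescue against 501, 497 and 438 CPM (log2 fold change 0.94, adjusted p = 0.0235), and the ephrin receptor EPHA4 (0.79, adjusted p = 0.0356). DUSP4 and EPHA4 did not keep their calls in every fit with a library left out, with adjusted p up to 0.0969 and 0.119.

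Genes of a growth factor receptor and of a kinase rose as well. EGFR, the receptor of epidermal growth factor, stood at 86.6, 89.6 and 86.8 CPM in rescue and at 50.2, 45.4 and 53.5 CPM in the libraries labelled knockdown. It rose by 0.82 on the log2 scale (SE 0.146, edgeR adjusted p = 0.0118), and the call was lost in 3 of the 9 fits that left out a library (adjusted p up to 0.0609, without knockdown replicate 2). In its list of 18, CBL (0.54), the ubiquitin ligase of EGFR, and HIP1R (0.67), a clathrin adaptor, rose too. Each of these 2 passed in 5 of the 9 such fits. The ligand gene EGF fell (-0.78), but it passed in 2 of the 9, with an edgeR adjusted p of 0.228 with library size alone. MAP3K14, the NF-kB-inducing kinase, stood at 85.9, 74.6 and 91.6 CPM in rescue and at 32.6, 31.9 and 31.9 CPM in the libraries labelled knockdown (log2 fold change 1.39, SE 0.123, adjusted p = 0.00126). It passed in all 9 fits that left out a library. The spread within its knockdown-labelled group was small, and the controls (34 to 41.3 CPM) sat just above it. MAP3K14 was the only 1 of 22 tested NF-kB pathway genes to pass, where 9.83% of all genes tested passed.

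Of the 20 tested matrix metalloproteinases and inhibitors, MMP10 rose and the sheddase gene ADAM17 fell, a share near that of all genes (4.44% rose and 5.39% fell). ADAM17 (log2 fold change -0.48, edgeR adjusted p = 0.0316) passed in 1 of the 9 fits that left out a library, and its adjusted p was 0.447 with library size alone. The neighbouring collagenase gene MMP1 was also apart from all 3 knockdown-labelled libraries. It held 6.72, 3.5 and 4.97 CPM in rescue against 0.538, 1.24 and 0.326 CPM, and missed the threshold (log2 fold change 2.78, SE 0.797, edgeR adjusted p = 0.0511). Among 20 kinase A anchoring and subunit genes, AKAP12 and AKAP13 (0.68, adjusted p = 0.0173) rose, and PKIB, a protein kinase A inhibitor, fell (adjusted p = 0.0388). AKAP13 passed in 4 and PKIB in 1 of the 9 fits that left out a library. With library size alone the edgeR adjusted p of PKIB was 0.147. The list's median was -5e-04 (0.25 with library size alone), within 0.0059 of that of all genes tested under either scaling. Of 27 cadherins and catenins, CDH4 and CDHR5 rose and none fell, where 4.44% of all genes rose and 5.39% fell. CDH4, the R-cadherin gene, held 44, 18 and 31 counts in rescue and 5, 1 and 2 in the knockdown-labelled libraries (log2 fold change 3.03, SE 0.6, adjusted p = 0.017). Its controls, at 1.84 to 2.45 CPM, lay with the rescue libraries (1.57 to 3.08 CPM). CDHR5 stood at 2.5, 7.26 and 4.17 CPM in rescue against 0.942, 0.353 and 0.87 CPM (2.71, adjusted p = 0.0199). Both calls were lost in 3 of the 9 fits that left out a library, with adjusted p up to 0.075 for CDH4 and 0.0871 for CDHR5.

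The other large rises apart from all 3 knockdown-labelled libraries, among protein-coding genes of at least 2 CPM that passed, were in genes of low level. CNIH3, an auxiliary subunit of glutamate receptors, stood at 2.37, 8.48 and 7.25 CPM in rescue against 0.404, 0.706 and 0.762 CPM (log2 fold change 3.21, SE 0.602, edgeR adjusted p = 0.0141). PFKP, the platelet phosphofructokinase of glycolysis, stood at 17.2, 10.6 and 20 CPM against 3.1, 3.53 and 1.85 CPM (2.48, SE 0.477, adjusted p = 0.015). CGA, the alpha subunit of the glycoprotein hormones, stood at 7.18, 5.51 and 3.78 CPM against 1.35, 1.77 and 0.109 CPM (2.33, SE 0.605, adjusted p = 0.0381). In CGA library 3 of the knockdown-labelled group, with 1 count, lay at control level, and libraries 1 and 2 lay between control and rescue. SPATC1 (2.58), IGFALS (2.36), a binding partner of circulating insulin-like growth factors, and the phosphate transporter SLC34A3 (2.11, 2.71 and 3.97 CPM in rescue against 0.808, 0.618 and 0.109 CPM) completed the set. Each of these 6 calls was lost in at least 3 of the 9 fits that left out a library, with adjusted p up to 0.162 for SPATC1.

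LTF, the iron-binding secretory protein lactoferrin, had the largest fall of a protein-coding gene apart from all 3 knockdown-labelled libraries. It stood at 1.71, 3.32 and 1.29 CPM in rescue and at 15.5, 16.2 and 13.6 CPM in the libraries labelled knockdown (log2 fold change -2.83, SE 0.41, 95% confidence interval -3.74 to -1.93, edgeR adjusted p = 0.00866). All 3 knockdown-labelled libraries were high and alike, and the controls (1.02 to 3.49 CPM) lay with the rescue libraries. DEFB1, an epithelial defensin, fell from 7.27, 5.38 and 4.13 CPM to 1.25, 1.49 and 1.89 CPM (-1.86, SE 0.32, adjusted p = 0.0105). ELF5, a transcription factor of secretory epithelium, fell from 10.4, 10.4 and 14.8 CPM to 5.4, 4.46 and 2.48 CPM (-1.51, SE 0.28, adjusted p = 0.014). For DEFB1 and ELF5 the controls lay above the rescue libraries, and each call was lost without a single rescue library (adjusted p = 0.0581 without replicate 1 and 0.055 without replicate 2). Over the 17 tested secretory defence genes, the median difference in log2 CPM was -0.57 against libraries 1 and 2 and 0.18 against library 3. LTF, DEFB1 and ELF5 were the 3 of these 17 that passed, and none rose. Over all genes tested, 5.39% fell and 4.44% rose. After LTF, DEFB1 and ELF5, the largest falls apart from all 3 libraries among protein-coding genes of at least 2 CPM that passed were the zinc finger gene ZNF492 (-1.49), HHLA3 (-1.45), the myosin light chain kinase MYLK (-1.38), MT-ATP8 (-1.36), the potassium channel partner KCNIP4 (-1.36), the lysosomal protease CTSC (-1.36), the kinase inhibitor CAMK2N1 (-1.32), CNFN (-1.27) and LACTB2 (-1.25). MT-ATP8 shares part of its sequence with the overlapping MT-ATP6, so its counts are uncertain.

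**Figure D3:**
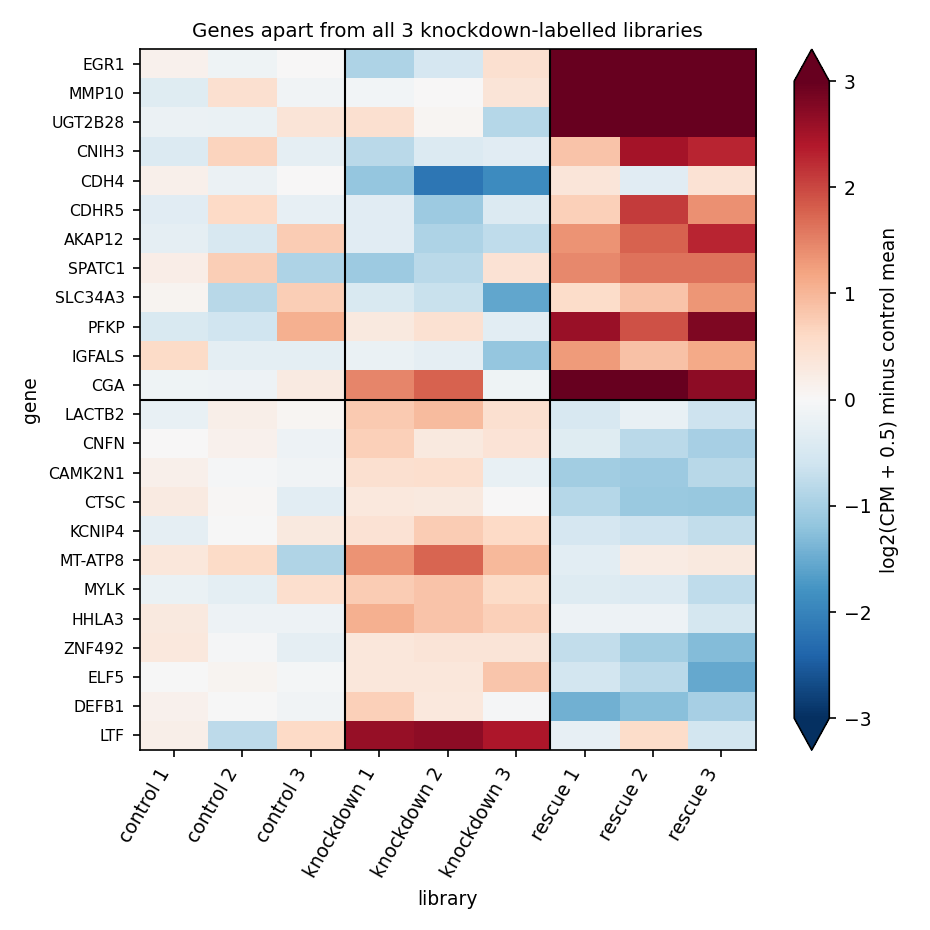
Heat map of the 12 largest rises and 12 largest falls among protein-coding genes of at least 2 CPM that passed and were apart from all 3 knockdown-labelled libraries: log2(CPM + 0.5) minus the control mean, one column per library, colours limited at 3 in either direction. EGR1, MMP10 and UGT2B28 are high in the rescue columns alone, CDH4 is low and LTF high in the knockdown-labelled columns alone, and CGA is intermediate in libraries 1 and 2.

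Where the controls lay differed from gene to gene. Of the 240 genes that passed and lay above all 3 knockdown-labelled libraries by the gap, the control mean was nearer to rescue for 136 and nearer to the libraries labelled knockdown for 104. Of the 100 below, it was nearer to rescue for 69 and nearer to the knockdown-labelled group for 31.

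Cell cycle genes that passed were all lower in rescue, and for several library 3 went with libraries 1 and 2. Of 44 tested G2 and mitosis genes, 12 fell and 0 rose (median log2 fold change -0.39). Of 43 DNA replication genes, 10 fell and 0 rose (median -0.16). Over all genes tested, 5.39% fell and 4.44% rose. PCNA, the sliding clamp of DNA polymerases, stood at 106, 102 and 102 CPM in rescue and at 187, 187 and 175 CPM in the libraries labelled knockdown (-0.82, SE 0.102, edgeR adjusted p = 0.00698). KIF20A, a kinesin of cytokinesis, stood at 47, 35.7 and 36.1 CPM against 74.4, 72.4 and 72.7 CPM (-0.88, adjusted p = 0.00866). CCNE2, the cyclin of S phase entry, stood at 27.6, 28.4 and 27.5 CPM against 44, 54.9 and 47.6 CPM (-0.81, adjusted p = 0.00866). These 3 were apart from all 3 libraries by the gap and their controls lay between the groups. Since 37.1% of the exon bases of CCNE2 lie opposite exons of another gene and the strand setting is unknown, its counts are uncertain. In CCNB1, the mitotic cyclin, library 3 was closer to rescue: 113, 107 and 112 CPM in rescue against 225, 201 and 168 CPM (-0.84, adjusted p = 0.00909). CDK1, its kinase partner, stood at 70.1, 68.2 and 67.2 CPM against 167, 177 and 89.9 CPM, with most of its difference in libraries 1 and 2 (-1.08, adjusted p = 0.0156). The median over the G2 and mitosis list, relative to control, was -0.22, -0.31 and -0.33 in rescue and 0.07, 0.11 and 0.19 in the knockdown-labelled libraries. With library size alone in place of TMM, the median of the replication list turned to 0.03 while that of all genes moved from -0.0023 to 0.24 (-0.22 relative to it), and KIF20A (adjusted p = 0.0516) and CCNE2 (0.06) no longer passed. The replication-dependent histone genes gave 0 calls of 25 in the edgeR fit (median -0.53), where 9.83% of all genes tested passed. H2BC12 shows the pattern, at 34.6, 42 and 43.1 CPM in rescue and at 78.3, 83.5 and 27.4 CPM in the libraries labelled knockdown.

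Many transcripts of energy production and translation were apart from libraries 1 and 2 only. Of 79 ribosomal protein genes, 51 were in that class on the lower side, as were 32 of 56 nuclear oxidative phosphorylation genes, against 3.86% of all genes tested. Together they are a minor share of the 648 genes of that class and side. In the edgeR test over all 3 libraries, 15 ribosomal protein and 11 oxidative phosphorylation genes fell and 0 rose (medians -0.78 and -0.74). Over all genes tested, 5.39% fell and 4.44% rose in that test. The median difference in log2 CPM of ribosomal protein genes was -1.10 between rescue and libraries 1 and 2, and 0.17 between rescue and library 3. For oxidative phosphorylation it was -1.08 and 0.18, so library 3 lay on the other side of the rescue libraries in both lists. RPS20, a protein of the small subunit, stood at 518, 510 and 618 CPM in rescue and at 1640, 1550 and 704 CPM in the libraries labelled knockdown (log2 fold change -1.24, edgeR adjusted p = 0.0207). In RPS20 library 3 lay above every rescue library, so this gene is outside the class apart from libraries 1 and 2 only. NDUFS5, a complex I subunit, stood at 98.8, 92 and 118 CPM against 271, 255 and 115 CPM (-1.05, adjusted p = 0.0336).

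The mitochondrially encoded mRNAs differed from those nuclear lists in that library 3 stayed above rescue. Of 13, 11 fell and 0 rose (median log2 fold change -1.35), and the median difference was -1.65 against libraries 1 and 2 and -0.55 against library 3. MT-CO1, the catalytic subunit of cytochrome oxidase, stood at 18200, 14900 and 20000 CPM in rescue and at 44100, 46700 and 31100 CPM in the libraries labelled knockdown (-1.20, SE 0.244, edgeR adjusted p = 0.0181). The call was lost in 5 of the 9 fits that left out a library, with an adjusted p of up to 0.088 without rescue replicate 2. The proteasome (6 of 31 fell), NRF2 antioxidant (6 of 29) and heat shock (2 of 25) lists also leaned on libraries 1 and 2. Their median differences were -0.54, -0.44 and -0.43 there and -0.03, -0.08 and 0.26 against library 3. In each of these lists 0 rose, where 5.39% of all genes tested fell and 4.44% rose. With library size alone the NRF2 and heat shock medians were 0.04 and 0.10, while that of all genes was 0.24, so relative to all genes both lists stayed lower (-0.20 and -0.14). TXN, the thioredoxin gene, is an example, at 75.5, 77.9 and 94.5 CPM in rescue and at 194, 194 and 103 CPM in the libraries labelled knockdown (log2 fold change -0.99, adjusted p = 0.0222).

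**Figure D4:**
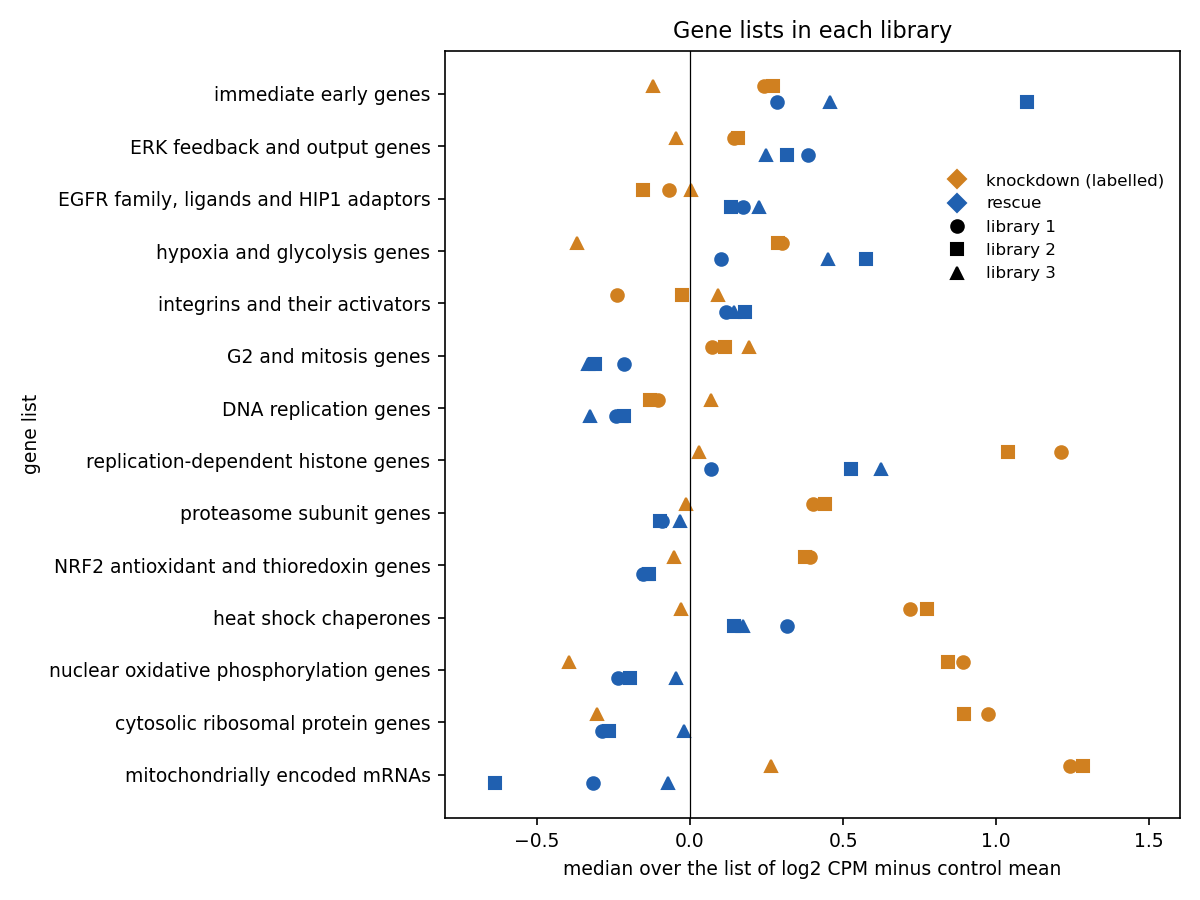
Median over each gene list of log2 CPM minus the control mean, one symbol per library (orange for knockdown-labelled, blue for rescue, shape for library number). In the ribosomal protein, oxidative phosphorylation, histone, heat shock and proteasome lists knockdown-labelled library 3 lies near or below the rescue libraries and libraries 1 and 2 lie far above them, whereas in the G2 and mitosis list all 3 lie above all rescue libraries.

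Single genes of the class apart from libraries 1 and 2 only reached large differences. NFAT5, the transcription factor of the response to osmotic stress, stood at 42.8, 43.1 and 33 CPM in rescue, and at 9.29, 8.39 and 39 CPM in the libraries labelled knockdown. Libraries 1 and 2 were low and library 3 lay within the rescue range, so the 3-library log2 fold change of 1.07 did not pass (edgeR adjusted p = 0.158). IDS, a lysosomal sulfatase, stood at 5.73, 5.16 and 2.58 CPM against 0.808, 0.353 and 3.81 CPM. EBLN2, GP1BA, GPR135, IMPG1, POTEE and SPDYE2 were the other leading genes above libraries 1 and 2, all with means under 6 CPM in rescue, and none passed (adjusted p 0.133 to 0.592). POTEE and SPDYE2 belong to families of near-identical copies, so their counts are uncertain. On the lower side, CKS2, a small partner of cyclin-dependent kinases, stood at 36.1, 32.4 and 45.1 CPM in rescue and at 160, 149 and 24.7 CPM in the libraries labelled knockdown. Library 3 lay below every rescue library, and against library 3 alone the log2 fold change was 0.64 (adjusted p = 0.0452), opposite to the -1.55 over all 3 (adjusted p = 0.0719). PLA2G2A, a secreted phospholipase, stood at 16.4, 29.3 and 36.6 CPM against 107, 113 and 24.2 CPM. CXCL13, a B cell chemokine, stood at 1.12, 3.15 and 1.89 CPM against 14.7, 12 and 0.544 CPM. GSTM5, APOD, NPPC, HSPA1L and PTPRN shared this pattern, and none of the 8 passed over all 3 libraries (adjusted p 0.0565 to 0.453).

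The genes apart from library 3 only included prostate and hypoxia genes. KLK2, an androgen-induced kallikrein, stood at 670, 817 and 1090 CPM in rescue and at 776, 756 and 215 CPM in the libraries labelled knockdown. KLK3, which encodes prostate-specific antigen, stood at 1110, 1330 and 1460 CPM against 1320, 1310 and 646 CPM. For both, libraries 1 and 2 were within the rescue range and library 3 was low, and neither passed (edgeR adjusted p = 0.383 and 0.588). Of 91 androgen-induced genes, 7 rose and 5 fell over all 3 libraries (median 0.08), where 4.44% of all genes rose and 5.39% fell, so the falls were near the background share. In the class above library 3 only were 8 of the 91, beside 4.98% of all genes tested. Without knockdown replicate 3 the list's median was -0.06. RAB3B, a vesicle GTPase, rose from 15.9, 22.2 and 27.4 CPM to 46.9, 52 and 42.4 CPM (log2 fold change 1.11, adjusted p = 0.00909), and PLPP1, a lipid phosphatase, fell (-0.80, adjusted p = 0.0105). FKBP5 (0.52, adjusted p = 0.0486) and TMPRSS2 (0.64, adjusted p = 0.0402), both induced by androgens, rose, with adjusted p up to 0.17 and 0.127 as libraries were left out.

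Of 42 hypoxia and glycolysis genes, 6 rose and 0 fell, where 4.44% of all genes tested rose and 5.39% fell. The list's median log2 fold change was 0.28, and 0.06 without knockdown replicate 3. Its median difference was 0.05 against libraries 1 and 2 and 0.90 against library 3. Above library 3 only were 10 of the 42, beside 4.98% of all genes tested. EGLN1, the oxygen-sensing prolyl hydroxylase, was among the exceptions: 29.9, 32.4 and 25.7 CPM in rescue against 7.27, 11.4 and 14.3 CPM, apart from all 3 (1.41, SE 0.212, edgeR adjusted p = 0.00866). NDRG1, at 332, 499 and 464 CPM against 210, 192 and 169 CPM, was another (1.18, adjusted p = 0.0207), although control library 3, at 376 CPM, lay within the rescue range. In contrast SLC2A3, a glucose transporter, stood at 1.25, 3.41 and 3.18 CPM against 2.02, 3.09 and 0.109 CPM. MAGEC2 and VCX3B, both cancer-testis genes, were likewise low in library 3 alone among these 6 libraries. VCAN, the matrix proteoglycan versican, was the reverse, at 25.2, 26.8 and 18.1 CPM in rescue and at 15.7, 18.9 and 92.3 CPM in the libraries labelled knockdown. FAT4, GRM3, HAL and the interferon-induced IFI44 were high in library 3 in the same way.

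**Figure D5:**
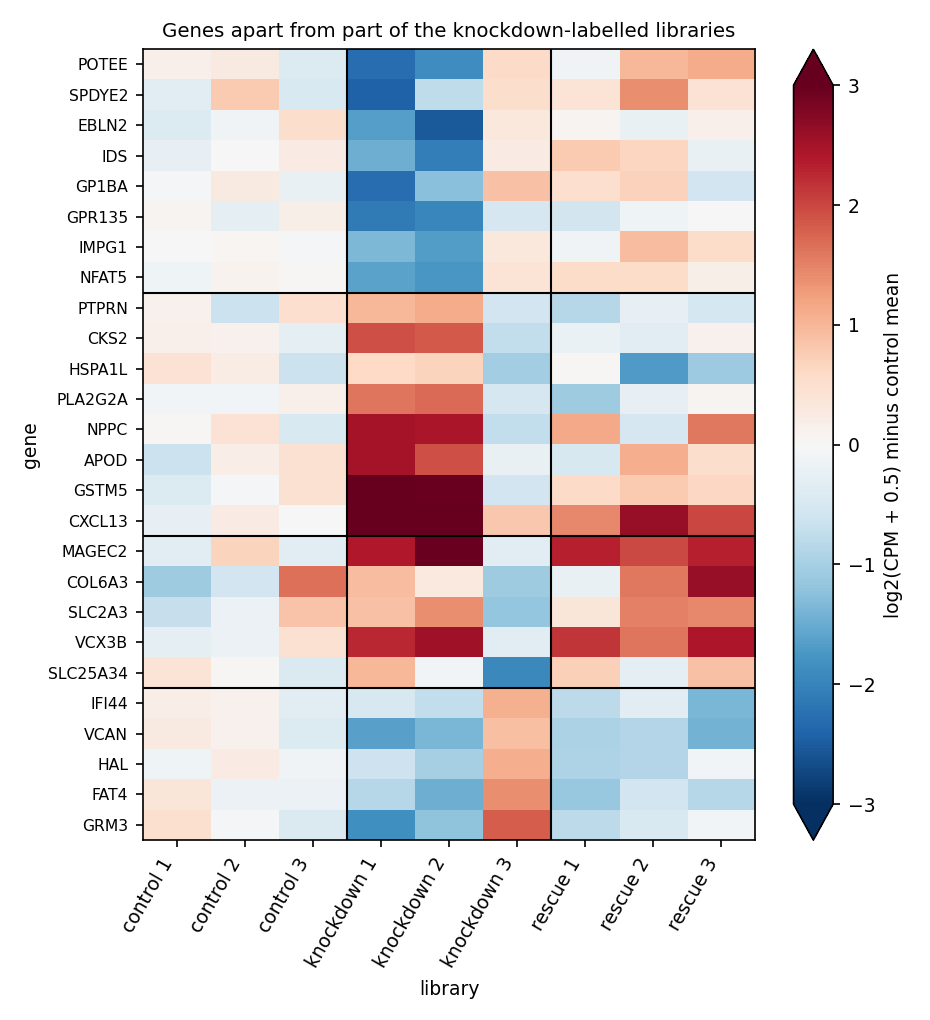
Heat map of genes apart from libraries 1 and 2 only (upper 2 blocks: 8 above and 8 below in rescue) and from library 3 only (lower 2 blocks: 5 above and 5 below), as log2(CPM + 0.5) minus the control mean with colours limited at 3 in either direction. The column of knockdown-labelled library 3 has the opposite colour to columns 1 and 2 in most rows, as in NFAT5 and VCAN.

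In several other lists a few genes passed, where 4.44% of all genes tested rose and 5.39% fell. Of 37 cholesterol and fatty acid synthesis genes, 5 rose and 0 fell (median 0.07, and -0.04 without knockdown replicate 3), among them the sterol enzyme genes CYP51A1 and LSS. LSS stood at 190, 181 and 178 CPM in rescue against 117, 124 and 116 CPM (log2 fold change 0.62, edgeR adjusted p = 0.0107), and without rescue replicate 1 its adjusted p was 0.0605. Of 25 integrins and their activators, ITGB5 (0.52), PXN (0.45) and PARVB (3.06, from 1, 0 and 3 counts) rose and 0 fell. The median of this list was 0.34, and 0.17 without knockdown replicate 1. ITGB5, PXN and PARVB passed in 2, 2 and 1 of the 9 fits that left out a library. MX1, an antiviral GTPase, rose from 27.1, 29.6 and 37.9 CPM to 59.1, 69.4 and 74.3 CPM (1.10, adjusted p = 0.00909), the only 1 of 22 interferon-stimulated genes to pass. TAGLN, an actin-binding protein of smooth muscle, rose from 22.9, 24.7 and 20.6 CPM to 37.5, 38.9 and 44.6 CPM (0.83, adjusted p = 0.00909). TAGLN and MYLK were the 2 of 29 stromal and mesenchymal genes that passed, in opposite directions. Beside them, the fibroblast marker COL1A1 stood at 19.7, 31 and 76.7 CPM in rescue and at 22.3, 23.3 and 27.4 CPM in the libraries labelled knockdown, and none of 5 tested fibroblast markers passed in the edgeR fit. The summed level of all 7 fibroblast markers was 49.3, 62.5 and 127 CPM in rescue and 42.5 to 48.7 CPM in the libraries labelled knockdown, beside 20.3 to 69.5 CPM in the controls. PDGFRA was at 0 counts in all 3 knockdown-labelled libraries and at 0 to 4 in rescue. The part of other cells in these results was not tested, and fewer cells of a type and less RNA per cell cannot be told apart in bulk RNA.

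The classes also differed in what kind of transcript they held. Genes below libraries 1 and 2 only were short, with a median exon length of 2457 bases over protein-coding genes, and those above them long, with 7148 bases, beside 5114 bases over all protein-coding genes tested. For library 3 only it was the other way round, 2918 bases above and 6359 below. Genes above library 3 only were GC-rich (median 60.1%) and those below GC-poor (42.9%), beside 48.4% overall. The genes apart from all 3 also differed in GC content, with 57.7% above and 42.4% below. Their median exon lengths were 6006 bases above and 3298 below. Of the 308 above all 3, 153 were protein coding (49.7%), beside 74.2% of all tested. Antisense genes were 22.1% of the 308, beside 10.3% among all tested. The strand setting of the counting is unknown here, so antisense genes and their partners cannot be told apart. The part of length, GC content and composition in the results was not tested.

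Across 174 genes examined singly, 99 passed, and 15 of these passed in each of the 9 fits that left out 1 library. The rises were UGT2B28, EGR1, MMP10, AKAP12, MAP3K14, MX1, TAGLN, RAB3B and EGLN1, and the falls were LTF, ZNF492, PCNA, KIF20A, CCNB1 and CCNE2. When the controls were left out of the fit, UGT2B28 (edgeR adjusted p = 0.0243), MMP10 (0.0136), MAP3K14 (0.0243) and AKAP12 (0.0407) still passed, and EGR1 stood at 0.0546.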

How the data were processed

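Total RNA of LAPC4 cells was sequenced in 9 libraries, 3 per group. The submitters' processing notes name the hg38 build and the tools STAR, HTSeq, cutadapt and FastQC; no source used here gives their versions, annotation or strand setting. The authors deposited raw read counts (whole numbers, no normalization), with 60325 gene rows per library. Rows for reads outside genes (no feature 43.7% to 48.7%, ambiguous 2.36% to 3.14%, not unique 7.67% to 11.6%) stayed out of library sizes and tests.

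The test was the quasi-likelihood F test of edgeR 4.0.16 (R 4.3.3) with TMM scaling, after filterByExpr at a minimum count of 10. One fit held all 9 libraries and left 6 residual degrees of freedom. The threshold was a Benjamini-Hochberg adjusted p under 0.05 over all genes tested, and every adjusted p is from this method unless another is named. At 8132206 to 14185252 counts per library, low genes are the least precise. Classes used log2 CPM with a prior count of 2 and a gap of 1.5-fold. Symbols were matched to GENCODE release 29 (55709 to 1 gene). Promoter sequences are from RefSeq (GRCh38.p14). The fit was tested on simulated counts.

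The comparison, marker genes, gene lists and classes were chosen with earlier results of these data known. Genes were named by a rule: the 4 markers; the 12 largest rises and falls that passed, had at least 2 CPM and were apart from all 3 knockdown-labelled libraries; the 8 per direction apart from libraries 1 and 2 only, and the 5 per direction apart from library 3 only; up to 4 members per list by smallest p; and UGT2B paralogs. This rule took only protein-coding genes with under 20% of exon bases opposite another gene's exons. CCNE2, CDK1, FKBP5, FOS, FOSB, JUNB, KLK3, NR4A1, PLPP1 and TMPRSS2 were added after their values were seen; CCNE2 (37.1%) and PLPP1 (23.9%) exceed that limit.

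Alternatives were DESeq2 1.42.0 size factors and Wald test, library size alone, no filter, 1 CPM in 3 libraries, voom in limma 3.58.1, the 2 groups alone, the replicate number as a block, each library left out, other gaps, and a prior count of 0.5.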

Additional observations from a re-analysis of the deposited data

How the results depend on the processing

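The UGT2B28 rise passed in every alternative run. The count of 1651 genes stayed within 1.5 times with DESeq2 size factors, library size alone, a filter of 1 CPM in 3 libraries and limma-voom. The genes were less stable than the count: 885 of the 1651 also passed with library size alone. With DESeq2 size factors, the 1 CPM filter and limma-voom, 1596, 1581 and 1534 did. The count became 2636 with no filter on low counts, 2702 by the DESeq2 Wald test and 7 with only the 2 groups compared. Leaving out single libraries gave 134 (without rescue replicate 1) to 6745 (without knockdown replicate 3), with rescue replicate 2 or 3 left out giving 284 or 280, knockdown replicate 1 or 2 giving 527 or 226, and control replicate 1, 2 or 3 giving 843, 802 or 1065. Without knockdown replicates 1 and 2 together it was 3619. In that fit several of the 174 genes examined singly turned from lower to higher in rescue. Among them were CKS2 (log2 fold change 0.64), H2BC12 (0.56), KRT15 (0.79), KRT18 (0.47), CXCL13 (1.90), GSTM5 (1.62) and APOD (1.40). Others turned from higher to lower, among them GP1BA (-0.59) and EBLN2 (-0.34). These are directions of estimates only, as knockdown-labelled library 3 stood alone in that fit. This library held 5 counts of CXCL13, 9 of GSTM5 and 3 of APOD. Library size alone moved the split from 745 higher and 906 lower to 1327 and 230, as the median of all genes moved to 0.24.

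The 430 genes apart from all 3 knockdown-labelled libraries became 4808 with no gap, 92 with a gap of 2-fold and 618 to 663 with 1 rescue replicate left out, and split 563 to 49 with library size alone instead of 308 to 122. The 1210 apart from libraries 1 and 2 only became 1867 with library size alone (1735 above, 132 below), 5274 with no gap and 327 with 2-fold. The 1174 apart from library 3 only became 5767 and 377, and split 412 to 727 with library size alone instead of 836 to 338. The causes of these shifts were not tested.

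With the replicate number as a block 442 genes passed. Deviations of same-numbered libraries correlated at -0.355 to 0.078, and 1 of 9 libraries correlated best with its own number, so no pairing by number was visible. With 3 libraries per group, these correlations cannot show whether same-numbered libraries shared a culture or batch.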
